A study of Homo sapiens with 6 samples.

Results

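The genes described here are 32 enzymes, regulators and transporters of glycolysis, chosen by name from the deposited gene table of a study in MIA PaCa-2 cells. All 32 had a row, out of 18268 rows in all. MIA PaCa-2 is an established human pancreatic carcinoma line, labelled as epithelial. RNA was sequenced from 3 libraries with the empty pCDH vector and 3 in which LINC00901, a long noncoding RNA, was overexpressed, all grown in DMEM with fetal bovine and horse serum. The labels do not say whether replicates were separate cultures or whether each line was 1 clone, so the spread behind every p-value may be that of technical repeats. No row of the table names LINC00901, so its level was not analysed here and the groups are as labelled.

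Glycolysis splits glucose into pyruvate in the cytosol and yields ATP and NADH. Glucose enters through SLC2A (GLUT) carriers, is trapped by hexokinase and is committed by phosphofructokinase, which fructose 2,6-bisphosphate activates. Tumour cells often turn much of the pyruvate into lactate through lactate dehydrogenase and export it through SLC16A (MCT) carriers. Pyruvate dehydrogenase kinases hold pyruvate back from the mitochondria, and the hypoxia-inducible factor HIF1 and MYC are known activators of many of these genes.

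The values are FPKM, fragments per kilobase of gene scaled to the mapped fragments of a library, so levels of different genes can be compared per length. The depth behind them is unknown. FPKM values summed to between 87162 and 88738 in the vector libraries and to between 127768 and 128538 in the overexpression libraries, so the scaling of the libraries bears on every change. A change below is a difference in log2(FPKM + 0.5), overexpression minus vector, and a gene is called where limma's Benjamini-Hochberg adjusted p over all 9694 tested rows is under 0.05. Such a difference understates the change of low genes, and in bulk RNA a smaller share of cells with a transcript and less of it per cell cannot be told apart. Without scaling, the median tested row was higher by 0.27 log2 in the overexpression libraries. Centring each library on its median lowered every change by 0.21, and changes are given after that centring unless said otherwise. Each call was also made under 6 scalings, namely unscaled, median-centred, quantile, cyclic loess, a correction for gene length and GC content, and equal FPKM sums. Cyclic loess removes any trend of the difference on level. Of 8 epithelial markers, 6 reached 1 FPKM in some library, while EPCAM and CDH1 stood at no more than 0.14 FPKM in any. The summed level of the 8 was 142.4 to 147.3 FPKM in the vector and 141.34 to 153.44 in the overexpression libraries, but single markers differed in direction. KRT18 averaged 100.1 FPKM in the vector and 70.8 in the overexpression libraries, and the joined KRT8 row 24.6 and 15.6. KRT19 averaged 3.71 and 24.0, the joined CLDN7 row 8.66 and 20.7, CLDN4 7.79 and 16.4, and KRT7 0.54 and 0.34. The ranges of CLDN4 and KRT7 overlapped between the groups. CLDN4 read 9.68, 10.99 and 2.69 FPKM against 20.61, 28.28 and 0.28. Of 4 leukocyte markers, PTPRC, CD3E and MS4A1 were listed at 0 in all 6 libraries, where a 0 may be a failed estimate. The CD68 row, joined with EIF4A1 and SENP3, averaged 24.9 FPKM in the vector and 36.1 in the overexpression libraries. Of 3 mesenchymal markers, VIM averaged 229 and 577 FPKM, ZEB1 3.06 and 3.12, and CDH2 0.457 and 0.227. The part of these markers in the changes below was not tested.

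For 7 members the row also names other genes, so their values cannot be assigned to 1 gene alone. These are HK1 (HK1;HKDC1), GPI (GPI;PDCD2L;AC092073), PFKFB4 (PFKFB4;UCN2), ALDOA (ALDOA;AC093512), PGK1 (PGK1;ATP7A), LDHB (LDHB;GYS2) and TIGAR (CCND2;TIGAR). For TIGAR the partner CCND2, a cyclin, could supply part of the signal. GAPDH, PGAM1, ENO1, LDHA and PKM have many near-identical processed pseudogenes, so reads may have been shared with those copies.

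Promoter sequences were available for 29 of the 32 genes. The exceptions were PFKFB2, SLC2A3 and SLC16A1. The 250 bases before each RefSeq start site (build GRCh38.p14, another build than the authors' hg19) were searched on both strands for ACGTG, a core that HIF1 and the MYC family can read, and for GCGTG, which HIF1 can also read. A CACGTG box counts in both directions, since it holds ACGTG on each strand. Of 59 start-site windows of the members, 21 (35.6%) held ACGTG, against 18.5% of 35116 windows of all genes. CACGTG was in 13.6% of the members' windows and in 6.34% of all, and GCGTG in 18 of the 59 windows, 30.5%, against 32.2% of all. The AP-1 site TGACTCA (or its complement TGAGTCA) was in 3 of the 59 windows, 5.08%, against 4.20% of all. These matches are a description of the letters, and some windows of 1 gene overlap. Below are 3 genes that were higher under all 6 scalings, the lactate dehydrogenase pair, and the lactate carrier family member with the largest fall. Each is given 5′ to 3′ on the gene's strand, with ACGTG or its complement CACGT in capitals. The choice is uneven by motif, so the sequences shown do not represent the called genes. ALDOC, HK2 and GPI are the higher genes that held ACGTG, and LDHB and SLC16A4 are the lower genes that did not. Where a gene has several windows, the one with the most matches is shown.
ALDOC, chr17:28576896-28577145, minus strand: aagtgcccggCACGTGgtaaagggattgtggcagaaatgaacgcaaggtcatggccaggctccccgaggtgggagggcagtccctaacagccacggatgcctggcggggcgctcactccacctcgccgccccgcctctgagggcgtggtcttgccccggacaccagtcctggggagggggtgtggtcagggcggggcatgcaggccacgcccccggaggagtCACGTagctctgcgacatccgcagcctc
HK2, chr2:74834920-74835169, plus strand: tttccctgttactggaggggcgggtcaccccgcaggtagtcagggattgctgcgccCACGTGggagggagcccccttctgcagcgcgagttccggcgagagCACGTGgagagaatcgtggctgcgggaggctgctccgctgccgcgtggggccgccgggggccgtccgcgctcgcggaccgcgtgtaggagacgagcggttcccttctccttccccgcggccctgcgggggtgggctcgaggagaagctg
GPI, chr19:34364742-34364991, plus strand: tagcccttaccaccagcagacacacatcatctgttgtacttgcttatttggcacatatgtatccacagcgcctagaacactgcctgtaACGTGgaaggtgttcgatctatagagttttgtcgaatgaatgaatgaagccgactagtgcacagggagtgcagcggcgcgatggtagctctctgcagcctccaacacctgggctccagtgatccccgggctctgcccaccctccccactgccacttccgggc
LDHA, chr11:18394313-18394562, plus strand: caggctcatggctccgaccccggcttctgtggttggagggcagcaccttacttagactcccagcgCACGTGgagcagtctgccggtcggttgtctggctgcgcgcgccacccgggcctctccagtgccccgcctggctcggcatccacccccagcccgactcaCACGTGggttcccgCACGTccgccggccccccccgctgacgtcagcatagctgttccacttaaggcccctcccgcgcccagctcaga
LDHB, chr12:21657843-21658092, minus strand: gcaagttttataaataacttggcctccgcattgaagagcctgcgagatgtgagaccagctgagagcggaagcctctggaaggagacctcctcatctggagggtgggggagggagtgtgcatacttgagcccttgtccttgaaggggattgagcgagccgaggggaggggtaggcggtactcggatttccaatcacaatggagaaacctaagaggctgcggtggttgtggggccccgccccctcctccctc
SLC16A4, chr1:110391027-110391276, minus strand: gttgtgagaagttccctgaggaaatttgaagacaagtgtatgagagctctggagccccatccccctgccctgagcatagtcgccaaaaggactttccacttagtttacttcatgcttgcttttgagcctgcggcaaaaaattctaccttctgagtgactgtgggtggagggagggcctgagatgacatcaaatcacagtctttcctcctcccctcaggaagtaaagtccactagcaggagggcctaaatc
LDHA had 5 ACGTG matches in this window, HK2 had 4, ALDOC had 3 and GPI had 1, while LDHB and SLC16A4 had 0. Of the genes called higher under all 6 scalings, 3 of the 5 with a promoter entry held ACGTG (ENO1 and PFKL did not), and of those called lower 2 of 4 did (PFKFB3 and ENO2). GCGTG was in 4 of the 5 (ALDOC, HK2, ENO1 and PFKL) and in 1 of the 4 (PFKFB3). Of all 29 members with a promoter entry, 18 held ACGTG and 16 held GCGTG in some window. No such share per gene was computed over all genes.

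In the vector cells the members spanned a wide range of levels. GAPDH was the highest at 268 ± 5.85 FPKM (SD, n = 3), followed by LDHA at 108 ± 1.94, ENO1 at 94.6 ± 1.83, TPI1 at 82.1 ± 5.13, PKM at 79.9 ± 6.68 and PGAM1 at 78.7 ± 5.35. The last 3 lay within each other's spread. In 4 families 1 gene was well above the others, ALDOA over ALDOC, ENO1 over ENO2 and ENO3, LDHA over LDHB, and SLC16A1 over SLC16A3 and SLC16A4. The 3 phosphofructokinase genes were closer to each other, with PFKP at 9.78 ± 0.564, PFKM at 6.66 ± 0.328 and PFKL at 6.46 ± 0.458 FPKM (SD, n = 3), of which the last 2 did not differ beyond their spread. ENO3, the muscle enolase, and PDK2 averaged under 1 FPKM and were not tested, which left 30 members tested. LDHB was tested only because of its vector level.

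**Figure D1:**
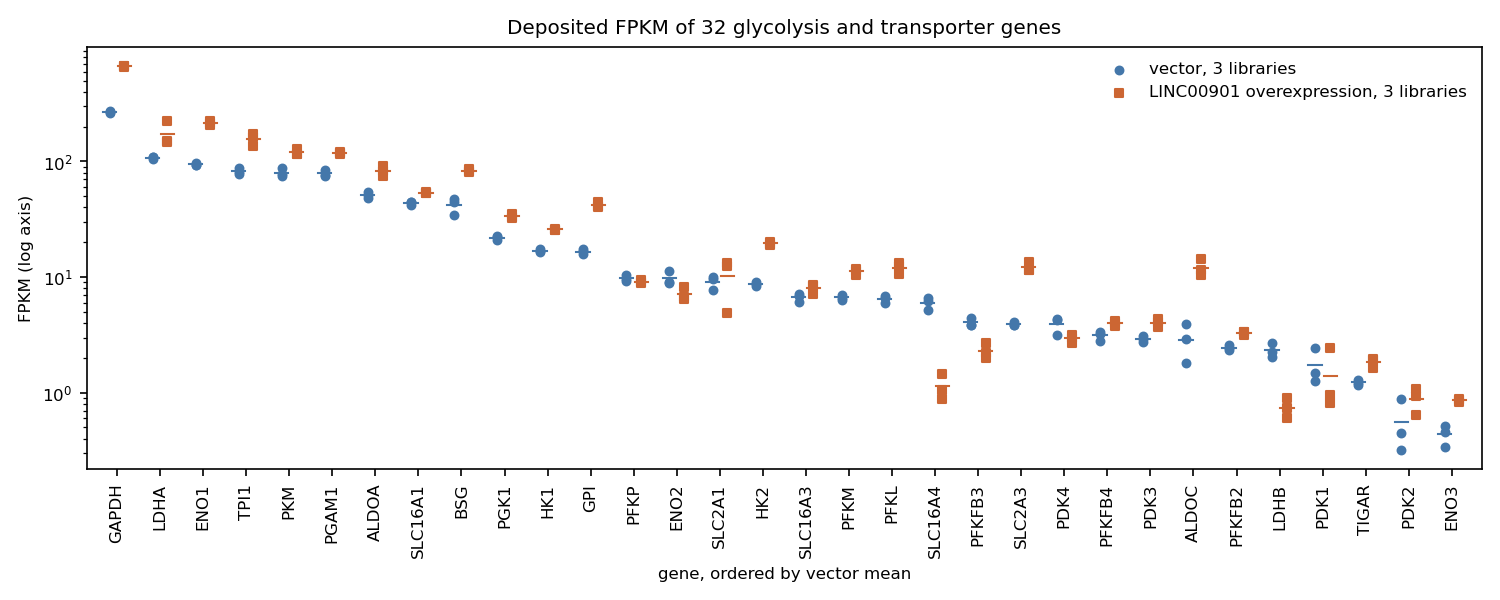
Deposited FPKM (log axis) of the 32 genes in each library, ordered by the vector mean, with circles for the 3 vector libraries, squares for the 3 overexpression libraries and short lines for the group means. GAPDH is the highest in both groups, and SLC16A4, LDHB and PFKFB3 stand lower in all 3 overexpression libraries.

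Of the 30 tested members, 20 were called higher and 4 lower without scaling (limma), where 37.4% and 11.9% of all tested rows were. After centring, 15 were called higher and 6 lower, against 24.0% and 19.2% of all rows, while the correction for length and GC content gave 15 and 5, against 22.6% and 17.5%. The members' median change was 0.37 after centring, and that of all tested rows 0.06. With cyclic loess the counts were 8 higher and 8 lower (20.0% and 21.0% of all rows), and the median change was 0.07 for the members and 0.01 for all rows. Quantile scaling gave 7 higher and 8 lower (19.2% and 20.9% of all rows). With equal FPKM sums, 9 were higher and 7 lower (11.9% and 34.5% of all rows). Called in 1 direction under all 6 scalings were 10 members: SLC2A3, HK2, GPI, PFKL, ALDOC and ENO1 higher, and PFKFB3, ENO2, LDHB and SLC16A4 lower. Among all tested rows this held for 21.3%, namely 10.3% higher and 10.9% lower. For 10 other members the sign itself depended on the scaling. The FPKM ranges of the groups did not overlap for 22 tested members that were higher and 5 that were lower, and the same held for 44.9% and 15.6% of all tested rows.

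**Figure D2:**
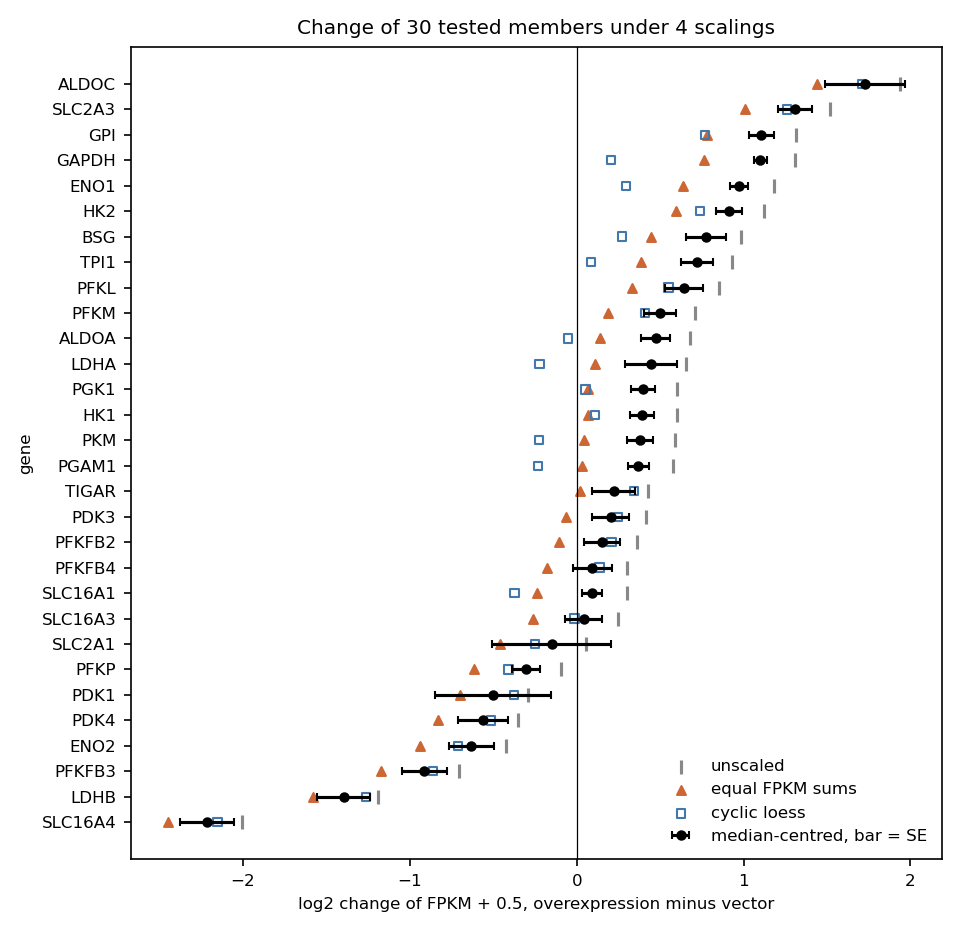
Log2 change (overexpression minus vector) of the 30 tested members, with dots and SE bars for median-centred values, ticks for unscaled values, triangles for equal FPKM sums and open squares for cyclic loess. SLC16A4, LDHB, PFKFB3 and ENO2 lie left of 0 and ALDOC, SLC2A3, GPI, HK2 and ENO1 right of 0 under all 4, while LDHA, PKM and PGAM1 lie on both sides.

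Level moved with the change across the whole table. Without scaling, the median change was 0.11 over the 2424 tested rows with the lowest levels and 0.49 over the 2424 with the highest. Of the 30 tested members, 14 were among those highest rows. The median of the highest rows was 0.28 after centring and 0.01 with cyclic loess. ALDOA, PGAM1, PKM, LDHA and SLC16A1 were called higher unscaled and were below 0 with cyclic loess.

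**Figure D3:**
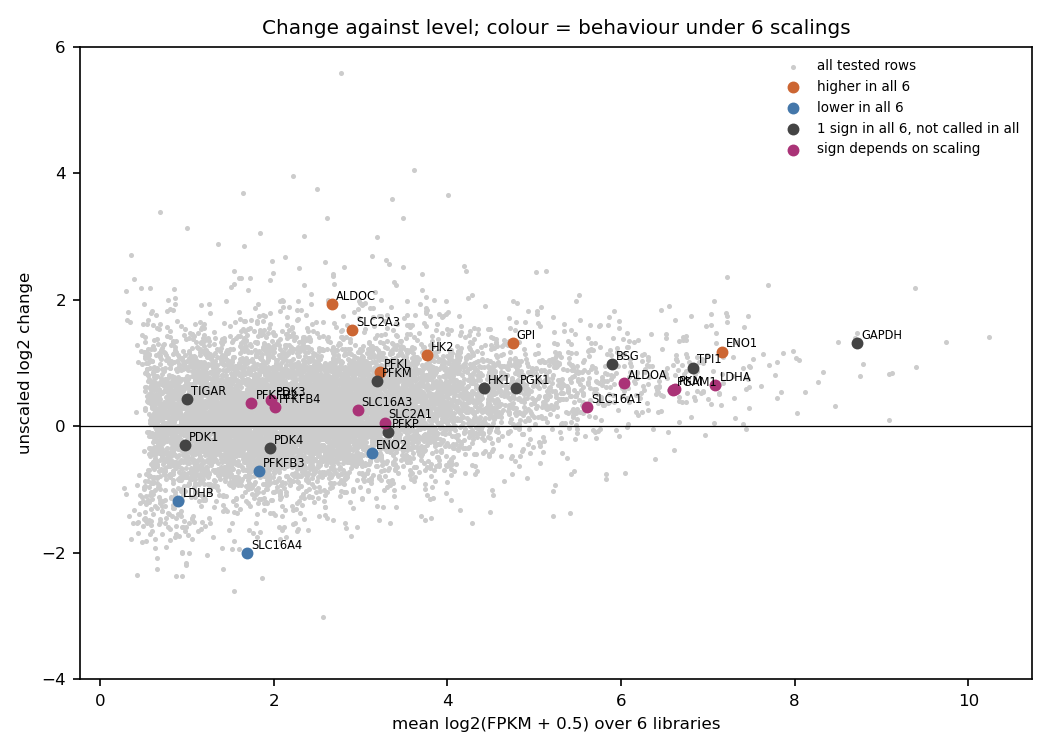
Unscaled log2 change against mean log2(FPKM + 0.5) over the 6 libraries for all 9694 tested rows (grey) and the 30 tested members, coloured by whether they were called in 1 direction under all 6 scalings. The members above a mean log2 of about 5 are all above 0 on this unscaled axis.

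The members include 2 class I glucose carriers. SLC2A3 (GLUT3), a high-affinity carrier typical of neurons, read 4.11, 3.85 and 3.84 FPKM in the vector libraries and 11.60, 13.42 and 11.59 in the overexpression libraries. The groups were far apart, and SLC2A3 was 3.10-fold higher in FPKM, a change of 1.31 ± 0.103 (SE, limma adjusted p = 0.000318, and 0.000137 unscaled). SLC2A1 (GLUT1), the widespread basal carrier, read 7.66, 9.57 and 9.94 FPKM against 4.93, 13.26 and 12.45. Overexpression replicate 1 stood below every vector library and the other two above them. SLC2A1 did not pass the test (limma adjusted p = 0.904 unscaled and 0.753 centred), and its sign depended on the scaling. Without overexpression replicate 1 its unscaled change was 0.49 (limma adjusted p = 0.0361), and without replicate 2 or 3 of that group it was -0.18 or -0.14. Within each library the log2 ratio of SLC2A3 to SLC2A1 ranged from -1.27 to -0.82 in the vector and from -0.10 to 1.16 in the overexpression group, so the vector cells held more SLC2A1 than SLC2A3 and the overexpression libraries held about equal or more SLC2A3.

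Hexokinase traps glucose as glucose 6-phosphate. HK2, the inducible isoform bound to mitochondria in many tumours, read 8.73, 8.39 and 8.98 FPKM against 19.28, 19.05 and 20.27 in the overexpression libraries. Replicates lay close together, and HK2 was 2.25-fold higher, with a change of 0.91 ± 0.0774 (SE, limma adjusted p = 0.000419). The HK1 row, of the housekeeping isoform and HKDC1, read 17.38, 16.47 and 16.79 FPKM against 25.56, 26.25 and 25.78. It was called higher after centring (limma adjusted p = 0.00504) but not with cyclic loess, quantile scaling or equal FPKM sums. The log2 ratio of HK2 to HK1 moved from -0.92 ± 0.0453 to -0.40 ± 0.0565 (SD, n = 3), without overlap.

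Next in the pathway, GPI turns glucose 6-phosphate into fructose 6-phosphate. Its joined row read 15.70, 16.66 and 17.47 FPKM in the vector libraries and 44.82, 40.99 and 40.47 in the others, a change of 1.11 ± 0.077 (SE, limma adjusted p = 0.000241). The phosphofructokinase genes encode subunits of the same committed step. PFKL, the liver-type subunit, read 5.95, 6.58 and 6.84 FPKM against 10.55, 12.49 and 13.21. It was higher under all 6 scalings, although with equal FPKM sums the adjusted p was close to the threshold (limma, 0.0495). PFKM, the muscle-type subunit, read 7.01, 6.61 and 6.36 against 11.34, 11.86 and 10.41, and was called higher under 5 of 6 scalings. PFKP, the platelet-type subunit, read 9.30, 9.63 and 10.40 against 9.08, 9.38 and 8.90. Those ranges overlapped, and PFKP was not called unscaled (limma adjusted p = 0.403), while its change of -0.30 after centring was (limma adjusted p = 0.0275). Its log2 ratio to PFKL went from 0.56 ± 0.0437 to -0.38 ± 0.170 (SD, n = 3). PFKP was thus the highest of the 3 subunit genes in each vector library and the lowest in each overexpression library.

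Bifunctional PFKFB enzymes make and break fructose 2,6-bisphosphate, the activator of phosphofructokinase. PFKFB3, the isoform with the strongest kinase activity, read 3.83, 3.88 and 4.44 FPKM against 2.01, 2.70 and 2.19. All overexpression libraries were below all vector libraries, and PFKFB3 fell by 0.91 ± 0.135 (SE, limma adjusted p = 0.00244, and 0.0054 unscaled). The other isoforms were not called under most scalings. PFKFB2 read 2.58, 2.36 and 2.42 against 3.13, 3.36 and 3.38, and the joined PFKFB4 row 3.23, 3.38 and 2.81 against 3.79, 4.03 and 4.13. Neither was called after centring (limma adjusted p = 0.282 and 0.535), and both signs depended on the scaling. The PFKFB2 call without scaling (limma adjusted p = 0.0279) was lost without vector replicate 2 or 3 or any overexpression library, at 0.0509 to 0.0983. Within the libraries the log2 ratio of PFKFB4 to PFKFB3 lay between -0.58 and -0.17 in the vector and between 0.50 and 0.78 in the overexpression group, and that of PFKFB2 to PFKFB3 went from between -0.76 and -0.49 to between 0.27 and 0.53. PFKFB3 was the highest of the 3 in every vector library and the lowest in every overexpression library. TIGAR, which removes fructose 2,6-bisphosphate, had a joined row of 1.17, 1.21 and 1.30 against 1.90, 1.97 and 1.62 FPKM that was called only unscaled (limma adjusted p = 0.0305). That call was lost without any 1 library other than vector replicate 3, at 0.0546 to 0.101.

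Aldolase cleaves the 6-carbon sugar. ALDOC, the brain-type aldolase, had the largest rise among the tested members under each scaling, from 2.93, 1.79 and 3.89 FPKM to 10.42, 11.46 and 14.28. It was 4.20-fold higher in FPKM, with a change of 1.73 ± 0.242 (SE, limma adjusted p = 0.00199). The joined row of ALDOA, the main aldolase, read 53.93, 51.49 and 48.63 against 82.97, 74.97 and 90.62. Centred, ALDOA was higher by 0.47 (limma adjusted p = 0.00574), with cyclic loess it stood at -0.05. The log2 ratio of ALDOC to ALDOA was -3.99 ± 0.510 in the vector and -2.74 ± 0.170 in the overexpression libraries (SD, n = 3), so ALDOA stayed the more abundant.

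The lower part of the pathway, from triose phosphate to pyruvate, holds the most abundant members. GAPDH, which makes the NADH of the pathway, read 272.90, 261.43 and 269.13 FPKM against 666.79, 660.16 and 667.24. Its change was 1.10 ± 0.0418 (SE, limma adjusted p = 7.21e-05). With cyclic loess it was 0.21 (limma adjusted p = 0.0104), and with quantile scaling it was not called. ENO1, the widespread enolase, read 96.61, 93.04 and 94.11 against 224.27, 213.78 and 207.78, a change of 0.97 ± 0.0542 (SE, limma adjusted p = 0.000131). TPI1, the triose isomerase, read 80.80, 77.73 and 87.75 against 162.24, 135.88 and 173.72, a change of 0.72, but with cyclic loess and quantile scaling it was not called. Other enzymes of this stretch had smaller fitted changes. PGK1 (joined row), PGAM1 and PKM, which carry out the ATP-yielding steps and the phosphoglycerate shift between them, were higher by 0.40, 0.37 and 0.38 after centring (limma adjusted p = 0.00514, 0.00428 and 0.00859). With cyclic loess PGK1 stood at 0.05, PKM at -0.22 and PGAM1 at -0.23, the last called lower (limma adjusted p = 0.0244). With equal FPKM sums all 3 were within 0.07 of 0 and none was called.

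Among the enolases, ENO2, the neuronal isoform, read 8.84, 9.11 and 11.24 FPKM against 6.75, 8.18 and 6.44, below the vector range in every overexpression library. It was lower by 0.63 ± 0.134 after centring (SE, limma adjusted p = 0.00933) and lower under all 6 scalings. Unscaled, its adjusted p of 0.0379 (limma) became 0.0579 and 0.0949 without vector replicate 2 and 3, 0.0998 and 0.119 without overexpression replicate 1 and 3, and 0.0753 with the replicate number as a block. ENO3 stayed under 1 FPKM, at 0.52, 0.34 and 0.46 against 0.86, 0.83 and 0.88, and was not tested. The log2 ratio of ENO2 to ENO1 was -3.22 ± 0.191 in the vector and -4.83 ± 0.178 in the overexpression libraries (SD, n = 3), without overlap.

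Lactate dehydrogenase interconverts pyruvate and lactate. LDHA, the subunit that favours lactate, read 105.53, 108.76 and 109.01 FPKM against 147.52, 149.04 and 223.00. Overexpression replicate 3 stood well above its group. LDHA was called higher unscaled (limma adjusted p = 0.0134) but not after centring (change 0.45, limma adjusted p = 0.0579), and with cyclic loess its change was -0.22. LDHB, the subunit that favours pyruvate, was low throughout, with a joined row of 2.70, 2.05 and 2.25 against 0.90, 0.60 and 0.73 FPKM. It fell by 1.40 ± 0.157 after centring (SE, limma adjusted p = 0.000926) and was lower under all 6 scalings. The log2 ratio of LDHA to LDHB within a library was 5.26 ± 0.191 in the vector and 7.11 ± 0.391 in the overexpression group (SD, n = 3). This difference of 1.84 was the largest positive one among the 14 pairs in the deposited values. With cyclic loess it was only 1.04, below ALDOC to ALDOA (1.76), SLC2A3 to SLC2A1 (1.51) and PFKFB2 to PFKFB3 (1.07). With the replicates at hand an exact permutation test cannot go below 0.10 for any of these pairs.

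Pyruvate dehydrogenase kinases switch off the enzyme that feeds pyruvate to the citric acid cycle. PDK3 read 3.11, 2.89 and 2.73 FPKM against 4.34, 3.70 and 4.09 and was called higher unscaled (limma adjusted p = 0.0209), not after centring (0.177). The unscaled call was lost without vector replicate 3 (0.0537) and without overexpression replicates 1 and 3 (0.0668 and 0.0716), and with equal FPKM sums the sign turned. PDK4, known for its rise in fasting and fat use, read 4.33, 4.28 and 3.16 against 2.71, 2.97 and 3.15. It was not called unscaled (limma adjusted p = 0.0829) and was lower by 0.56 after centring (limma adjusted p = 0.0228). Without vector replicate 3 the unscaled PDK4 change was called (-0.48, limma adjusted p = 0.0226). PDK1, a HIF1 target, was not called and its ranges overlapped, at 1.27, 2.45 and 1.48 against 0.96, 0.81 and 2.44 FPKM (limma adjusted p = 0.279 centred and 0.51 unscaled), and PDK2 read 0.32, 0.45 and 0.89 against 0.64, 1.07 and 0.93.

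Of the SLC16A carriers, SLC16A1 (MCT1), a carrier of lactate and pyruvate, had the highest level in both groups. It read 44.24, 42.31 and 44.29 FPKM against 53.75, 53.58 and 54.35. The groups did not overlap, but the change was 0.09 after centring (limma adjusted p = 0.236), and it was called higher unscaled and lower with cyclic loess, quantile scaling and equal FPKM sums. SLC16A3 (MCT4), the low-affinity exporter of glycolytic cells, read 6.09, 6.84 and 7.11 against 7.15, 8.38 and 8.61. It was called under none of the 6 scalings, and its sign depended on them. SLC16A4, a family member whose substrates are less well known, read 5.24, 6.6 and 6.22 against 1.46, 0.89 and 1.05. It fell by 2.21 ± 0.163 after centring (SE, limma adjusted p = 0.000265), the largest fall of any tested member under each of the 6 scalings. BSG (basigin), the chaperone that brings SLC16A1 and SLC16A3 to the membrane, read 34.49, 47.15 and 44.70 against 80.80, 82.92 and 85.75, a change of 0.78 (limma adjusted p = 0.00291), but with cyclic loess and quantile scaling it was not called. The log2 ratio of SLC16A3 to SLC16A1 overlapped between the groups, at -2.62 ± 0.123 and -2.67 ± 0.132 (SD, n = 3), whereas that of SLC16A4 to SLC16A1 went from -2.76 ± 0.187 to -5.07 ± 0.254.

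Ratios of deposited values within a library are not changed by a scaling that multiplies all genes of a library by 1 factor, apart from the pseudocount, but they are by quantile scaling, cyclic loess and the length and GC correction. Of 14 isoform pairs compared, 10 had ranges that did not overlap between the groups. Single rows did not overlap in 60.6% of all tested rows, but single-row values depend on the scaling of the libraries. No such share was computed over other gene pairs, and several of the 14 pairs share a gene. Each of the 10 pairs gave a two-sided exact permutation p of 0.10, the smallest that 3 against 3 allows. After Benjamini-Hochberg adjustment over the 14 it was 0.14, so none passed 0.05. The pairs PFKM to PFKL, PDK1 to PDK2, PDK3 to PDK2 and SLC16A3 to SLC16A1 overlapped. For 11 pairs both genes were tested, and the difference of their changes kept its sign under all 6 scalings for 10, the exception being SLC16A3 to SLC16A1. With cyclic loess that difference was 1.04 for LDHA to LDHB, -1.01 for ENO2 to ENO1, -1.78 for SLC16A4 to SLC16A1 and 1.76 for ALDOC to ALDOA. A ratio shows unequal change of the 2 genes, not which of them moved.

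**Figure D4:**
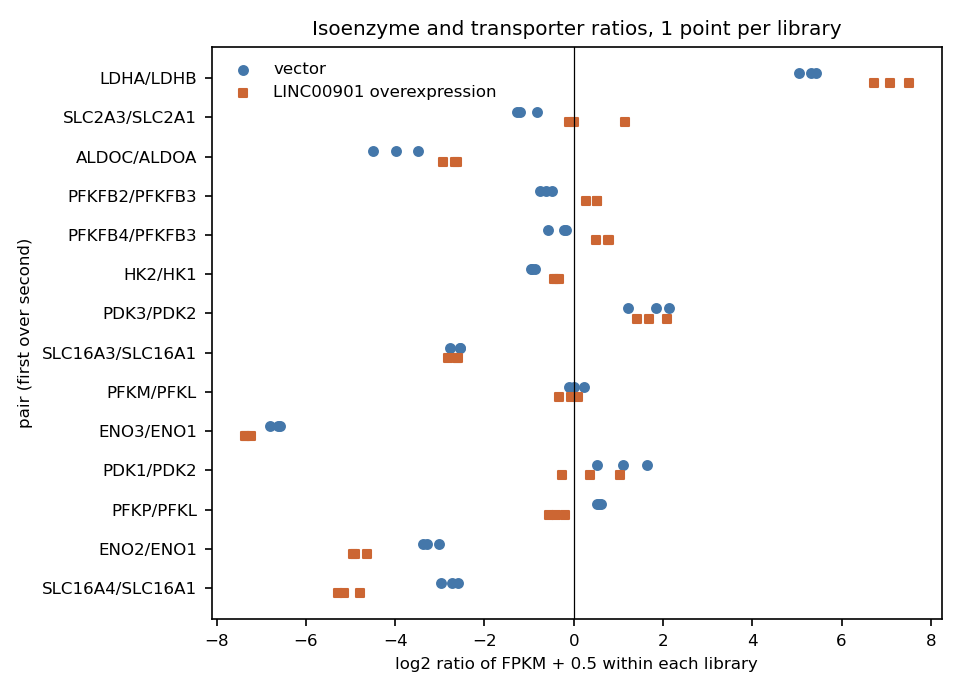
Log2 ratio of FPKM + 0.5 between 2 isoforms or carriers within each library, with circles for the 3 vector and squares for the 3 overexpression libraries. LDHA over LDHB lies farthest right and shifts up, SLC16A4 over SLC16A1 and ENO2 over ENO1 shift down, and SLC16A3 over SLC16A1 overlaps.

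Together the 32 genes took 1.14% ± 0.0154 of the FPKM sum in the vector libraries and 1.48% ± 0.0556 in the overexpression libraries (SD, n = 3). GAPDH alone took 0.305% ± 0.00687 and 0.518% ± 0.00388. The other 31 took 0.830% ± 0.0179 and 0.959% ± 0.052. These are descriptions with no test, and they share the libraries' total with all other genes.

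**Figure D5:**
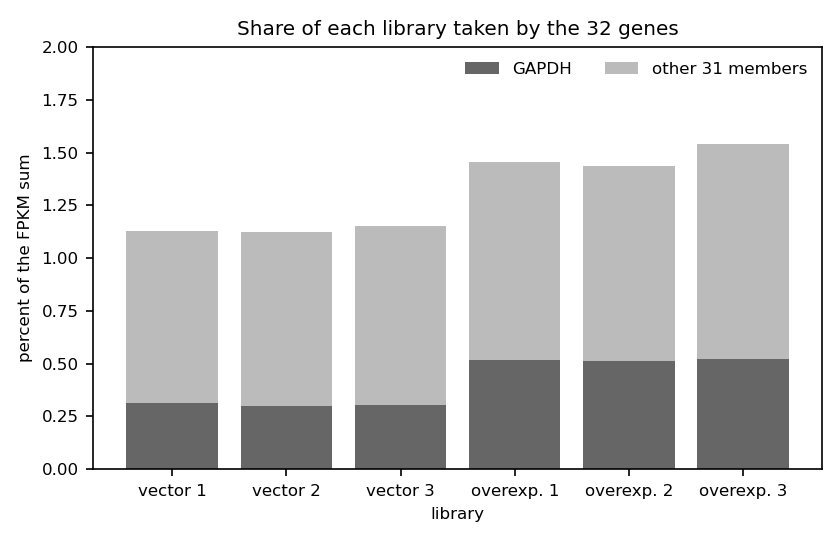
Percent of each library's FPKM sum held by GAPDH (dark) and by the other 31 genes (light), 1 bar per library. The vector bars reach 1.13% to 1.15% and the overexpression bars 1.44% to 1.54%.

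Other genes of the pathway and its neighbours were taken from 10 lists, with 2 list genes left out because they share a member's row. Counts are of calls after centring, in limma, where 24.0% of all rows were higher and 19.2% lower. Citric acid cycle enzymes had 14 of 20 higher and 1 lower, with a median change of 0.65. With cyclic loess these were 11 and 2, and with equal FPKM sums 9 and 4. IDH3G, a subunit of isocitrate dehydrogenase, rose from 2.02 ± 0.741 to 9.16 ± 0.182 FPKM (SD, n = 3). MDH2, the mitochondrial malate dehydrogenase, rose from 16.7 ± 0.466 to 42.1 ± 4.42 FPKM (SD, n = 3). Among genes of pyruvate entry into mitochondria 4 of 10 were higher and 1 lower, with PC, the pyruvate carboxylase, at 1.77 ± 0.0289 against 4.76 ± 0.814 FPKM and PDHB, a subunit of pyruvate dehydrogenase, at 3.51 ± 0.379 against 7.91 ± 0.619. The lower gene was PDPR, a regulator of pyruvate dehydrogenase phosphatase, at 17.97, 18.17 and 18.07 against 14.31, 8.16 and 13.11. Its unscaled change of -0.63 became -0.39 without overexpression replicate 2, and the unscaled call (limma adjusted p = 0.0357) was lost without any vector library or overexpression replicate 3, at 0.0504 to 0.0833.

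Glycogen and galactose genes had 5 of 13 higher and 0 lower after centring (1 was lower with equal FPKM sums). PGM1, which joins glycogen to glycolysis, read 11.30, 12.70 and 13.45 FPKM against 38.63, 35.61 and 37.81, and PYGL, a glycogen phosphorylase, 15.63, 15.90 and 16.49 against 41.47, 40.25 and 42.27. In the hexosamine branch 0 of 7 were higher and 2 lower. These counts were 3 and 1 without scaling, 2 and 2 after correcting for length and GC content, 1 and 3 with cyclic loess and quantile scaling, and 0 and 3 with equal FPKM sums. OGT, which attaches N-acetylglucosamine to proteins, fell by 0.97 (limma adjusted p = 0.00176). Of the NADH shuttle genes 2 of 7 were higher and 2 lower. The higher genes were the aspartate aminotransferases GOT1 (change 0.81) and GOT2 (0.63, not called with cyclic loess). The lower genes were the carriers SLC25A12 (-0.44, limma adjusted p = 0.0174) and SLC25A13 (-0.49, limma adjusted p = 0.00898), neither called unscaled. One of 3 tested gluconeogenesis genes was higher, PCK2, the mitochondrial PEP carboxykinase, at 5.22 ± 1.65 against 12.6 ± 1.84 FPKM (SD, n = 3).

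Among further isoenzymes 2 of 5 tested genes were higher and 0 lower. Genes averaging under 1 FPKM were not tested, among them GAPDHS at 1.48 ± 0.591 against 0.463 ± 0.0833 FPKM (SD, n = 3). Without that filter, and without scaling, limma called 3 of 14 higher and 4 lower. No share over all rows is given for that setting. LDHD, a mitochondrial D-lactate dehydrogenase, was tested only because of its overexpression level, and read 0.31, 0.91 and 0.82 FPKM against 3.44, 4.73 and 3.50, and BPGM, which makes 2,3-bisphosphoglycerate, 0.61, 1.46 and 1.22 against 3.03, 3.12 and 2.67. One of 3 other hexose carriers was higher, the joined row MIF;SLC2A11;AP000350, in which MIF is a cytokine gene, and it was not called with equal FPKM sums. Of 4 tested genes from the list of other SLC16 carriers, limma called 0 in either direction under each of the 6 scalings, with 0 at an unadjusted p under 0.05 without scaling. Of the controllers 6 of 22 were higher and 2 lower after centring, but 2 and 2 with cyclic loess and 2 and 6 with equal FPKM sums. TXNIP, a glucose-induced arrestin that lowers glucose uptake, read 14.23, 13.86 and 15.40 FPKM against 71.10, 89.94 and 84.88, a change of 2.25 ± 0.106 (SE, limma adjusted p = 8.66e-05), larger than the rise of any tested member under each of the 6 scalings. MYC rose by 1.01. The HIF1A row, joined with SNAPC1, averaged 16.7 FPKM in the vector and 24.7 in the overexpression libraries. Its change was 0.34 (limma adjusted p = 0.0196, and 0.0031 unscaled). HIF1AN was lower by 0.35 after centring (limma adjusted p = 0.0168) but not called unscaled (0.22). PRKAA1, a catalytic subunit of the energy sensor AMPK, fell by 0.79 (limma adjusted p = 0.00145).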

How the data were processed

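Total RNA of 6 MIA PaCa-2 libraries was sequenced. The authors deposited 1 table of FPKM values per gene and library. Cutadapt, FastQC, HISAT2 and build hg19 are named in the submitters' processing notes; for their versions and for the tool behind the FPKM values the sources used here give nothing. Of 18268 rows, 990 join several gene names, and 3750 are listed at 0 in all libraries, all 13 mitochondrially encoded rows among them, so a 0 may be a failed estimate.

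Depth is unknown. In low rows (196 vector, 429 overexpression) 20.2% and 17.1% of ratios between values came within 0.1 log2 of a power of 2. The ratios compare libraries of unknown depth, so such a check could miss steps of whole reads. Whole reads were not recovered, and no count model was used. Rows averaging at least 1 FPKM (9694) were tested on log2(FPKM + 0.5) with limma 3.58.1 (R 4.3.3), trend on, two-sided, Benjamini-Hochberg adjusted. The fit was tested on simulated data. Length and GC content came from the longest GENCODE 29 transcript by symbol (99.6% of tested rows). For a joined row this was the longest transcript of any joined name, so for the 7 joined members it may be a partner's. Tables and plots were made in Python 3.11.15 (pandas 2.3.3, numpy 2.4.6, matplotlib 3.10.9). Promoters came from RefSeq (GRCh38.p14).

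The members and gene lists were chosen with earlier results of these data known. Every member is accounted for. Of each pathway list, up to 2 genes higher and 2 lower were named, those with the largest unscaled change among genes called both unscaled and centred. GAPDHS, HIF1A, HIF1AN, SLC25A12 and SLC25A13 were given in addition, outside that rule. Scaling to equal FPKM sums was added after seeing the data. Other alternatives were the pseudocount, the filter, the normalization, the model settings and leaving out each library. Same-numbered libraries of the groups did not deviate together (correlations of -0.037, -0.0057 and -0.005), so numbers were not taken as pairs. The labels give no batch.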

Additional observations from a re-analysis of the deposited data

How the results depend on the processing

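Across all tested rows, 3621 were called higher and 1152 lower. These became 2396 and 422 with a mean of at least 5 FPKM, 2331 and 1866 with median centring, 1865 and 2024 with quantile normalization, 1942 and 2034 with cyclic loess, 2287 and 594 at an adjusted p of 0.01, and 1155 and 3345 with equal FPKM sums. With the length and GC correction 2185 were higher. Of the members, 20 were called higher and 4 lower, which became 7 and 8 with quantile normalization, 8 and 8 with cyclic loess, 9 and 7 with equal FPKM sums, and 1 lower with a mean of at least 5 FPKM, where fewer members were tested. Leaving out 1 library gave 17 to 19 members higher and 3 or 4 lower. With the replicate number as a block, 18 were higher and 3 lower. Lost were PFKFB2, ENO2 and TIGAR, and no other member or list gene named by the size of its change. The causes of the other changes were not tested.

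Signs turned as follows. SLC2A1 (0.06) was -0.15 with median centring, -0.26 with quantile normalization, -0.25 with cyclic loess, -0.21 with the length and GC correction, -0.46 with equal FPKM sums, and -0.18 to 0.49 without 1 library (-0.05 without vector replicate 1, -0.14 without overexpression replicate 3). With quantile normalization and cyclic loess, in that order, ALDOA was -0.0463 and -0.0503, PGAM1 -0.21 and -0.23, PKM -0.21 and -0.22, LDHA -0.22 and -0.22, SLC16A1 -0.36 and -0.37, and SLC16A3 -0.0094 and -0.0137. SLC16A3 was -0.0814 with the length and GC correction. With equal FPKM sums PFKFB2 was -0.11, PFKFB4 -0.18, PDK3 -0.0651, SLC16A1 -0.24 and SLC16A3 -0.26. The PDK3 to PDK2 log2 ratio difference of -0.00065 was 0.0807 with a pseudocount of 1 and -0.26 to 0.20 without 1 library (0.05 and 0.20 without vector replicates 2 and 1, 0.15 and 0.02 without overexpression replicates 2 and 3). That of SLC16A3 to SLC16A1 was -0.12 to 0.0233 without 1 library. Other differences kept their sign but changed in size with the pseudocount. That of SLC16A4 to SLC16A1 (-2.31) was -2.02 with a pseudocount of 1 and -2.64 with 0.1. That of ENO3 to ENO1 (-0.65) was -0.81 and -0.35, in the same order. In that order too, LDHA to LDHB (1.84) was 1.59 and 2.19, and PDK1 to PDK2 (-0.71) was -0.51 and -1.05. The members' share difference of 0.342 percentage points ranged from 0.311 to 0.363. Depth is unknown, so no counting limit can be given for low members such as LDHB and PDK1.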
